A study of Mus musculus with 4 samples.

Results

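Desmosomes and adherens junctions join heart muscle cells end to end at the intercalated disc. Of the 10 genes described here, Dsg2, Dsc2 and Cdh2 encode their cadherins, and Dsp and Vcl encode linkers to the cytoskeleton. The others (Jup, Pkp2, Pkp4, Ctnna1 and Ctnna3) encode plaque and catenin proteins of the complexes at the cadherin tails. The genes were named with earlier results of these data known, so that all 10 had a peak is no result. In all, 12182 genes had a peak. The 10 genes carried 22 of 20766 peaks in the list of control hearts and 15 of 21179 peaks in the list of knockout hearts.

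N6-methyladenosine (m6A) was mapped by MeRIP-seq, which sequences RNA fragments captured by an m6A antibody (IP) and the starting RNA (input), in whole hearts of mice aged 4 days. Control mice had the genotype Wtapflox/flox (RNA of 7 mice pooled), and knockout mice had the genotype Wtap-CKO (8 mice pooled). The labels do not name the Cre line or promoter that made the deletion. The knockout samples are titled WBKO while their peak list is named WCKO, and the list was taken as theirs because their description names it. Each genotype had 1 IP and 1 input library, so no difference below has a replicate check and no test between genotypes was possible.

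In the desmosome, the desmosomal cadherins desmoglein and desmocollin hold neighbouring cells together outside the membrane. Inside, plakoglobin and plakophilins connect them to desmoplakin, which anchors desmin filaments. In the adherens junction, N-cadherin binds catenins that attach actin, with vinculin as a further actin linker, and in heart muscle both kinds of junction mix in one structure, the area composita. WTAP is a regulatory subunit of the complex that writes m6A on mRNA, mostly near stop codons and in long exons.

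Each peak is a stretch of exonic sequence in which the authors' caller found more IP than input. Its fold is the IP over input ratio, its log10 q the logarithm of the adjusted p-value, and both are the authors' values for that peak, with each genotype's list called on its own. A peak is called shared when at least 1 exonic base overlaps a same-strand peak in the other genotype's list, and strong when q was at or under 1e-10. Positions are those of mouse build GRCm39. Gene boundaries of that build were not used here. Peaks are ordered 5′ to 3′ along the strand of their gene, with no statement on coding sequence or UTRs.

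Of the 10 junction genes, 3 (Dsg2, Dsc2 and Ctnna3) had control peaks but no knockout peaks, and no junction gene had peaks in the knockout list only. Over all genes, 10.5% had peaks in the control list only and 11.9% in the knockout list only. Another 3 genes (Dsp, Pkp4 and Vcl) had fewer knockout than control peaks, and 4 (Jup, Pkp2, Ctnna1 and Cdh2) had 2 knockout peaks against 1 control peak. Among the 7 junction genes in both lists, more knockout than control peaks were thus found in 4 and fewer in 3, against 23.8% and 19.5% of the 9456 genes in both lists. Of the 22 control peaks, 12 (54.5%, exact 95% interval 32.2 to 75.6) had no knockout counterpart, against 23.9% of all control peaks. Of the 15 knockout peaks, 5 (33.3%, 11.8 to 61.6) had no control counterpart, against 24.5% of all knockout peaks. The order of this last pair was reversed with an overlap of at least 50% of both peaks (33.3% against 39.7%). With a fold of at least 4 the order held with a smaller gap (33.3% against 31.7%). These intervals allow for counting error alone and treat peaks of one gene as if they were independent.

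The number of peaks in marker genes of heart cells differed between the lists as well. All 8 heart muscle markers searched had peaks in both lists, but 47 control against 24 knockout peaks, with fewer in the knockout for Ttn (21 and 4), Ryr2 (6 and 2), Pln (2 and 1) and Myh6 (5 and 4) and the same number for Tnnt2, Actc1, Actn2 and Tnni3. Without Ttn it was 26 against 20. The 30 markers of other cells had 31 control and 46 knockout peaks, with more in the knockout for 11 genes and fewer for 1 (Cdh5). By cell type these were 11 and 17 for fibroblasts (Col1a1 2 and 5, Col1a2 3 and 5), 8 and 11 for endothelium (Pecam1 1 and 3), and 9 and 11 for smooth muscle and pericytes. They were 0 and 2 for the epicardium (Wt1), 0 and 2 for epithelium (Krt8 and Krt18, with no peak in Cdh1 or Epcam), 2 and 2 for immune cells and 1 and 1 for erythroid cells. The heart muscle count was thus lower in the knockout list. The counts of fibroblasts, endothelium, smooth muscle and pericytes, epicardium and epithelium were higher there. Immune and erythroid counts were equal in both lists. Among the 9456 genes with peaks in both lists, 23.8% had more and 19.5% fewer knockout than control peaks. Of all 12182 genes with a peak, 11.9% had peaks in the knockout list only and 10.5% in the control list only. Some of the 30 markers had no peak in either list, unlike the genes behind these shares. The part of the marker counts in the junction gene results was not tested.

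**Figure D1:**
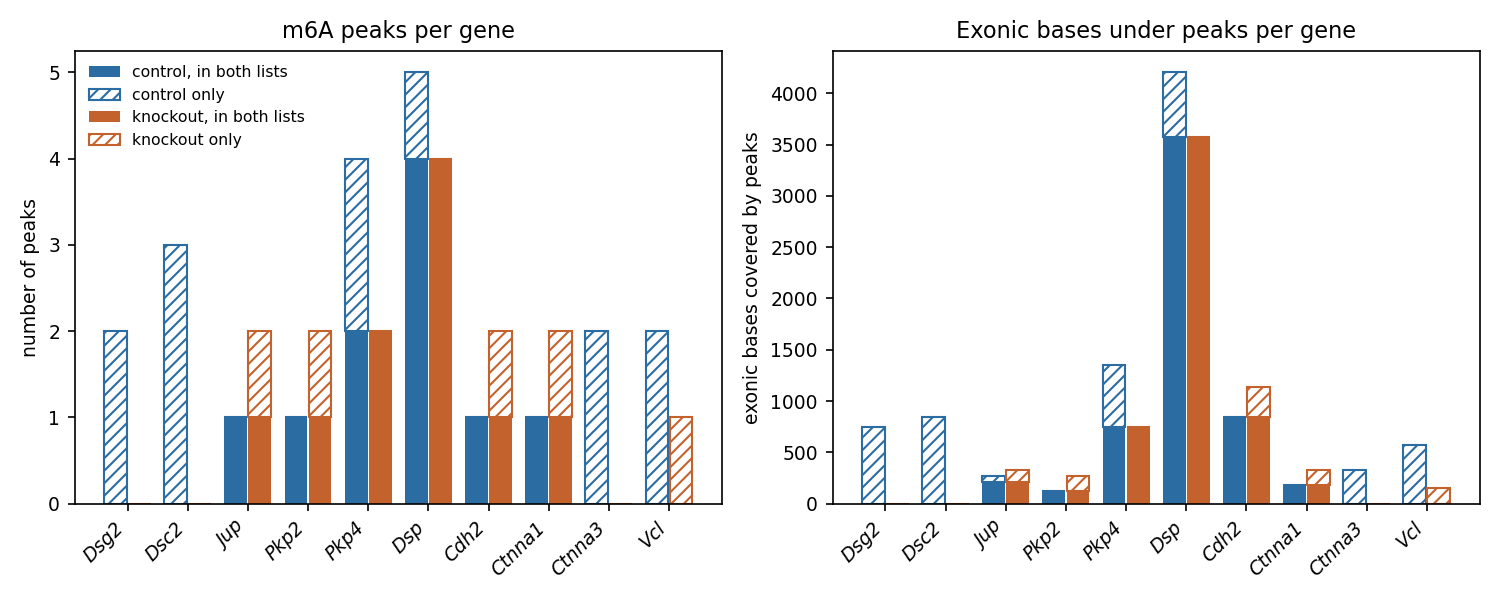
Number of m6A peaks (left) and exonic bases under peaks (right) for each of the 10 junction genes in the control and knockout lists. In the left panel filled parts are peaks with a counterpart in the other list, in the right panel they are bases covered in both lists, and hatched parts are those of 1 list. Dsg2, Dsc2 and Ctnna3 have no knockout bar, and no base or peak of Vcl is in both lists.

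The pair of desmosomal cadherin genes had no knockout peak. Dsg2, which encodes desmoglein 2, the main desmoglein of heart muscle, had 2 control peaks on chromosome 18, plus strand. The first lay at 20731459 to 20734613 in blocks of 267 and 244 bases (fold 6.51, log10 q -17.6) and the second at 20736440 to 20736679 (fold 3.45, log10 q -36.2). Both were strong. The first block of the first peak overlapped by 267 bases a control peak of the antisense gene Gm16090 (20731439 to 20732056, fold 8.82, log10 q -11.8), which had no knockout peak either. Which of both genes the signal came from cannot be told apart there.

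Dsc2, which encodes desmocollin 2, the partner of desmoglein 2, had 3 control peaks on the minus strand of chromosome 18. The 5′-most lay at 20192431 to 20192551 (fold 6.68, log10 q -3.06), the next at 20166178 to 20166328 (fold 1.72, log10 q -2.09) and the 3′-most at 20164889 to 20165459 (fold 6.68, log10 q -47.3). The first and the last had the same fold, with log10 q values far apart, and only the last was strong. It covered 571 bases, the widest of the control peaks without counterpart in the junction genes.

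Having several control peaks and no knockout peak was rare among all genes. Of 5453 genes with at least 2 control peaks, 244 (4.47%) had no knockout peak, and among the 6 junction genes with at least 2 control peaks it was 3. Of 6722 genes with a strong control peak, 230 (3.42%) had no knockout peak, and among the 7 junction genes with a strong control peak it was 2, Dsg2 and Dsc2. Besides Dsc2, 53 genes had at least 3 control peaks and no knockout peak. Those with most control peaks, and then the largest fold, were Gm9899 (8 peaks), Fam210a (6), Pcdhgb8 and Ppm1l (5 each), Zgrf1, Tnfrsf19, Lingo3 and B3galt1 (4 each). Of all 54 genes with this pattern, 24 had a strong peak.

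The genes around Dsc2, Dsg2, Ctnna3 and Cdh2 were examined after these peaks were seen. Within 1 Mb of the peaks of both cadherin genes, 5 other genes had peaks, 10 of them control peaks and 3 knockout peaks. These genes were Garem1 (5 and 1), B4galt6 (2 and 0), Trappc8 and Tpi-rs10 (1 and 1 each), and the antisense gene Gm16090 (1 and 0). Within 1 Mb of the peaks of Ctnna3, 11 other genes had 19 control and 16 knockout peaks. Fewer knockout peaks were found for Mypn (4 and 0), Ccar1 and Hnrnph3 (3 and 2 each), and Dna2 and Tet1 (1 and 0 each). More were found for Stox1 (0 and 2), Herc4 (1 and 2), Ddx50 (2 and 3) and 1700120B22Rik (0 and 1). Ddx21 (1 and 1) and Sirt1 (3 and 3) were equal. Around Cdh2, 2 other genes had 2 and 1.

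The plaque genes of the armadillo family, Jup, Pkp2 and Pkp4, each had at least 1 shared peak. Jup encodes plakoglobin, which sits in desmosomes and adherens junctions alike. Its control peak on chromosome 11 (minus strand, 100274246 to 100277033, blocks of 235 and 35 bases, fold 2.01, log10 q -12.8) was shared with a knockout peak trimmed by 30 bases at each end (fold 1.86, log10 q -7.01). The knockout list also had a Jup peak 11435 bases away, toward the 5′ end, at 100288469 to 100288589 (fold 4.34, log10 q -3.85).

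Pkp2 encodes plakophilin 2, which recruits desmoplakin to the desmosome. It had a weak control peak on chromosome 16, plus strand, at 16044031 to 16044151 (fold 1.97, log10 q -3.21), shared with a knockout peak that started 30 bases earlier (fold 1.91, log10 q -4.78). A knockout-only peak lay 12698 bases away, toward the 5′ end, at 16031212 to 16031332 (fold 2.72, log10 q -4.29). None of the Pkp2 peaks was strong, and Jup and Pkp2 were alike in having a knockout-only peak upstream of a shared one.

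Pkp4, which encodes an armadillo protein found at cell junctions, had 4 control and 2 knockout peaks on chromosome 2, plus strand. Its 5′-most peak spanned 3 exonic blocks, at 58991194 to 59031156 in the control (fold 14.4, log10 q -29.8) and at 58991194 to 59031126 in the knockout (fold 17.4, log10 q -48.5). This knockout fold was the highest among the knockout peaks of the junction genes. The next was shared too, at 59138433 to 59140455 in the control (fold 4.41, log10 q -42.8) and from 59138523 to the same end in the knockout (fold 2.11, log10 q -9.03). The 2 peaks nearest the 3′ end, at 59184596 to 59184925 (fold 2.62, log10 q -28.5) and 59185343 to 59185492 (fold 1.38, log10 q -3.59), were in the control list only. The nearest knockout peak of Pkp4 was 44140 bases from the first of them.

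Dsp, which encodes desmoplakin, had the most peaks of the junction genes, 5 control and 4 knockout peaks on chromosome 13, plus strand. The 5′-most was called at 38335450 to 38348839 in the control (fold 4.60, log10 q -27.8) and from 38335510 to the same end in the knockout (fold 4.17, log10 q -26.7). It overlapped peaks of the antisense gene Gm10129 in both lists. The overlap was 319 bases in the control (Gm10129 fold 4.61, log10 q -24) and 259 bases in the knockout (fold 4.48, log10 q -30.1). Which of both genes the signal came from cannot be told apart there. The next had the same coordinates in both lists, 38352639 to 38356787 (fold 2.11 and 1.89, log10 q -4.25 and -4.54).

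The third Dsp peak was the widest of the junction genes, with blocks of 2118 and 733 bases in the control (38375514 to 38379404, fold 3.96, log10 q -157) and of 2118 and 643 bases in the knockout (38375514 to 38379314, fold 5.85, log10 q -222). The fourth was the strongest control peak of the 10 genes. It covered 450 bases there (38379764 to 38380213) with a fold of 11.1, a log10 p of -966, which ranked 27 of 20766, and a q value given as 0. The knockout peak at this place covered 300 bases (38379884 to 38380183), with a fold of 2.85 and a log10 q of -106. Within the control list the fold of 11.1 lay at the 68.7th percentile, and within the knockout list 2.85 lay at the 13.7th, so the order of the fourth and the third peak by fold differed between the lists.

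The 3′-most Dsp peak, at 38380633 to 38380963, was in the control list only. It had a low fold of 1.95 with a log10 q of -40.4, and the nearest knockout peak ended 449 bases before it. Dsp had 4204 exonic bases under control peaks and 3573 under knockout peaks, all of which were covered in the control as well.

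**Figure D2:**
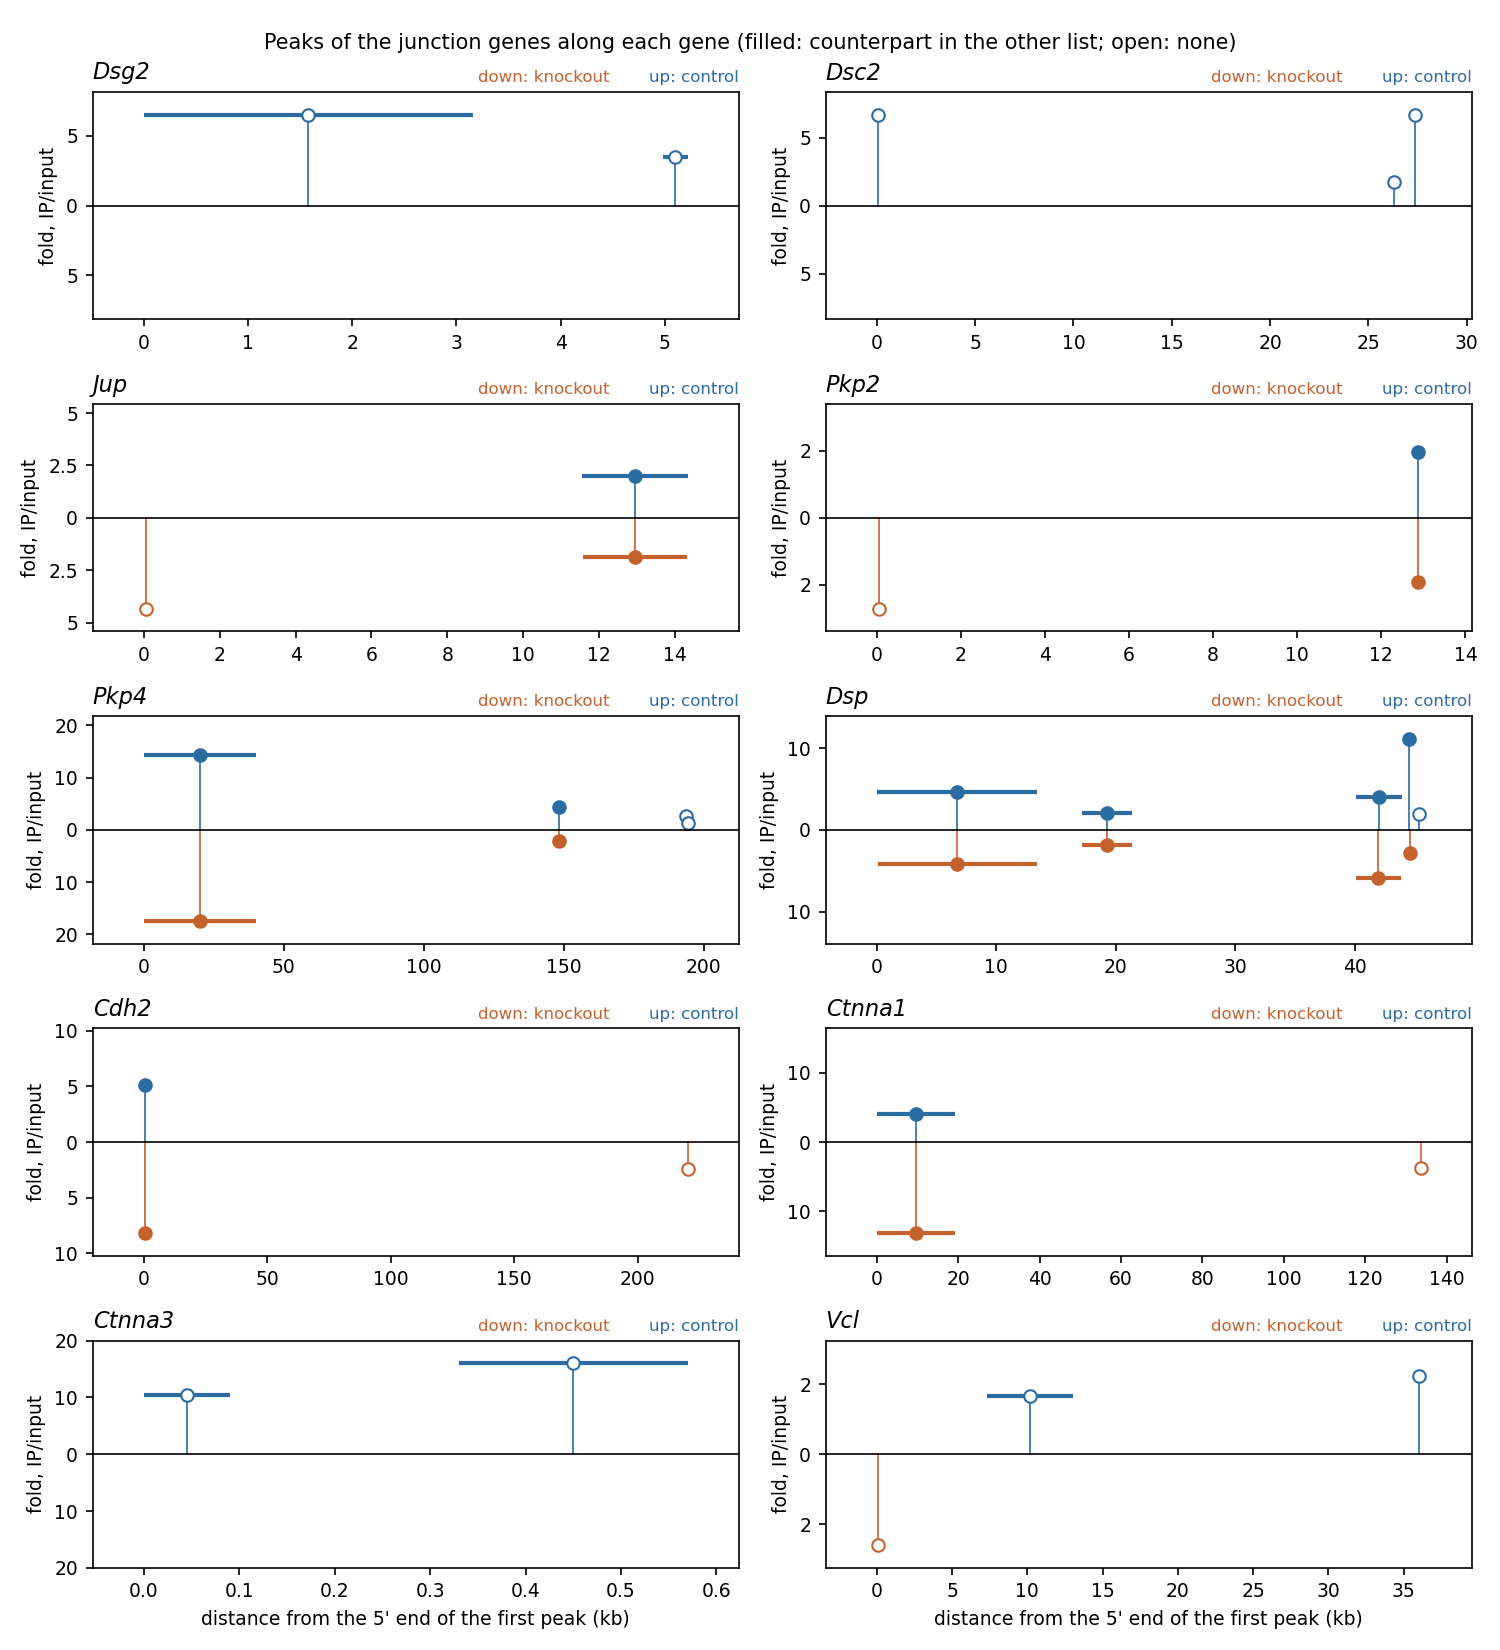
Peaks of each junction gene placed by distance in kb from the 5′ end of its first peak, in the direction of transcription, with the fold of IP over input upward for the control and downward for the knockout list. Bars show the span of a peak with its introns, filled circles have a counterpart in the other list and open circles have none. The last control circle is open in each of the 6 genes with 2 or more control peaks. In Dsg2, Dsc2, Ctnna3 and Vcl every control circle is open, so position plays no part there.

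The classical cadherin of the adherens junction had peaks in both lists. Cdh2, which encodes N-cadherin, lies on chromosome 18 as well and had 1 control and 2 knockout peaks on the minus strand. The 5′-most peak was shared, at 16941464 to 16942303 in the control (840 bases, fold 5.15, log10 q -19.3) and at 16941404 to 16942303 in the knockout (900 bases, fold 8.16, log10 q -37.7). A knockout-only peak lay 219259 bases away, toward the 3′ end, at 16721964 to 16722204 (fold 2.42, log10 q -10.6). It was the only strong knockout peak of the junction genes without a control counterpart, close to the limit of 1e-10 set for a strong peak.

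Of the α-catenin genes, Ctnna1 had peaks in both lists and Ctnna3 in the control list. Ctnna1, which encodes the α-catenin found in most tissues, had a shared peak of 3 blocks on chromosome 18, plus strand, at 35251942 to 35271075 in the control (fold 4.09, log10 q -7.26) and at 35251942 to 35271105 in the knockout (fold 13.1, log10 q -13.4). A knockout-only peak lay 114438 bases further on at 35385514 to 35385633 (fold 3.67, log10 q -4.22). Ctnna3, which encodes αT-catenin, a partner of plakophilin 2 in heart muscle, had 2 control peaks on chromosome 10, plus strand. They lay at 63420803 to 63420893 (fold 10.4, log10 q -1.79) and 63421133 to 63421373 (fold 16, log10 q -3.31). The knockout list had none for this gene. The fold of 16 was the highest of the control peaks of the junction genes, yet neither peak was strong, and the first of them was not far under the authors' q threshold of 0.05.

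Vcl, which encodes vinculin, was the junction gene with peaks in both lists and no overlap between them. On chromosome 14, plus strand, the control list had a peak of 3 blocks at 21053260 to 21058987 (fold 1.65, log10 q -4.19) and a strong one at 21081861 to 21082100 (fold 2.25, log10 q -28.6). The knockout list had 1 peak, 7147 bases before the first of them, at 21045962 to 21046112 (fold 2.60, log10 q -4.22). Of 9456 genes with peaks in both lists, 96.0% had at least 1 shared peak, and of the 7 such junction genes Vcl was the exception. The strong Vcl peak overlapped by 231 bases a control peak of Ap3m1 on the other strand (21081870 to 21082109, fold 2.23, log10 q -28.2), so the genes cannot be told apart there, and Ap3m1 had no knockout peak.

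Of 13 strong control peaks, 6 (46.2%, 19.2 to 74.9) had no knockout counterpart, against 8.72% of 9965 strong control peaks of all genes. They were the 2 peaks of Dsg2 and 1 each of Dsc2, Dsp, Pkp4 and Vcl. The first Dsg2 peak and the Vcl peak overlapped control peaks of Gm16090 (267 bases) and Ap3m1 (231 bases) on the other strand. Which gene gave the signal cannot be told apart in these stretches, and the counts here include both peaks. Counted by gene, 5 of 7 junction genes with a strong control peak had one without a counterpart, against 11.5% of 6722 genes. Without Dsp, the gene with most peaks, it was 5 of 9 strong control peaks (55.6%, 21.2 to 86.3). Of 7 strong knockout peaks, 1 (14.3%, 0.361 to 57.9), that of Cdh2, had no control counterpart, against 4.04% of all strong knockout peaks. By gene that was 1 of 4, against 5.80% of 6193 genes with a strong knockout peak, and none of the 4 lacked a control peak altogether, against 2.36%.

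**Figure D3:**
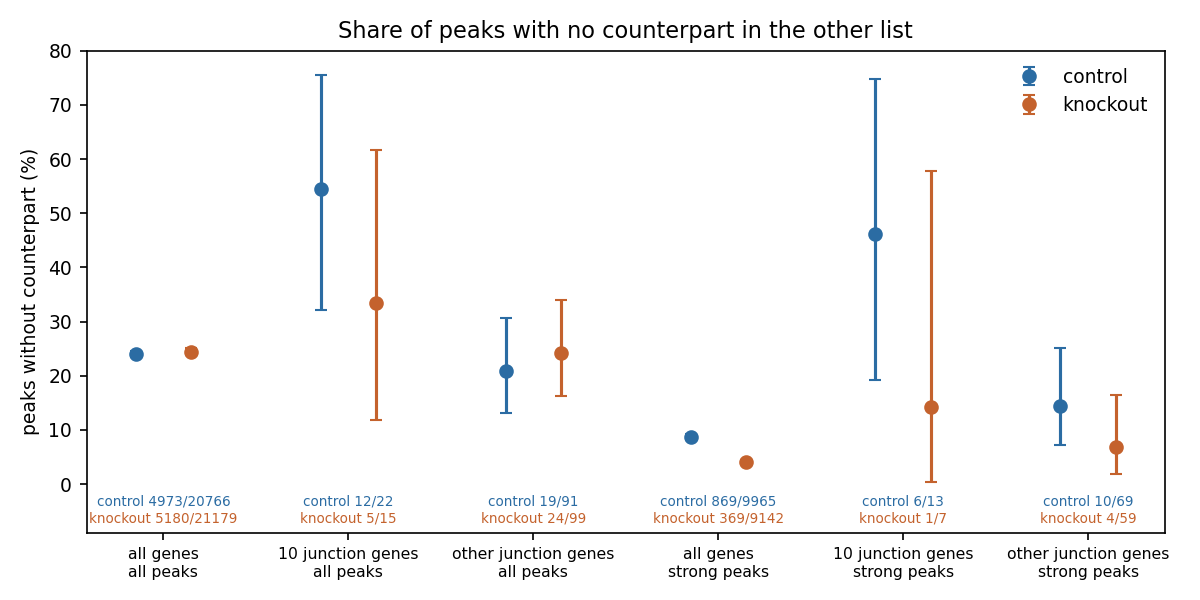
Percentage of peaks with no counterpart in the other list for all genes, the 10 junction genes and 55 other junction genes, over all peaks and over strong peaks (q at or under 1e-10). Points are shares, bars are exact 95% binomial intervals and the numbers at the foot are peaks without a counterpart over all peaks. The bars treat peaks of one gene as independent. The 10 genes, the other junction genes and the limit for strong peaks were chosen with earlier results of these data known. The bars are therefore no test of the 10 genes against all genes.

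The 3′-most control peak was without a counterpart in all 6 junction genes with at least 2 control peaks (Dsp, Dsg2, Dsc2, Pkp4, Ctnna3 and Vcl), a count made after the peaks were seen. Over all 5453 such genes it was 25.5%. Dsg2, Dsc2 and Ctnna3 had no knockout peak and Vcl no shared peak. In these genes every control peak was therefore without a counterpart, whatever its position. Only Dsp and Pkp4 had both shared and control-only peaks, so only they bear on position. The 3′-most peak was also strong in 4 of the 6 genes (Dsp, Dsg2, Dsc2 and Vcl), against 5.87% of all 5453 genes. That of Vcl overlapped a control peak of Ap3m1 on the other strand. The 5′-most control peak had no counterpart in 4 of the 6, against 20.7% of all, and those of Dsp and Pkp4 were shared. In the knockout list, 2 of 6 junction genes with at least 2 peaks (Ctnna1 and Cdh2) had a 3′-most peak without a control counterpart, against 17.9% of such genes, and 2 (Jup and Pkp2) had a 5′-most peak without one, against 31.0%.

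The peaks found in both lists were mostly those spread over several exons. Of the 9 control peaks with more than 1 exonic block, 7 were shared, and the exceptions were the first peaks of Dsg2 and Vcl. Of the 13 control peaks in a single block, 3 were shared, namely those of Dsp (the fourth), Pkp2 and Cdh2. Over all control peaks, 13% of those with several blocks and 26.9% of those with 1 block had no counterpart. All 7 knockout peaks of the junction genes with several blocks were shared. Over all knockout peaks, 22.4% of those with several blocks and 25.1% of those with 1 block had no counterpart, a smaller gap than in the control list. Peaks with several blocks made up 9 of 22 control peaks (40.9%) and 7 of 15 knockout peaks (46.7%) of the junction genes. Over all peaks these shares were 21.2% and 23.3%. In the other junction genes described further below they were 33.0% and 36.4%.

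The 10 shared control peaks each met 1 knockout peak, which gave 10 pairs. The control peak was wider in 6 pairs (3 of Dsp, 2 of Pkp4 and 1 of Jup), the knockout peak in 3 (Pkp2, Ctnna1 and Cdh2), and 1 pair of Dsp was equal. Start or end was the same in 8 pairs, and every shift was a multiple of 30 bases. In all, 9458 exonic bases of the 10 genes lay under control peaks and 6546 under knockout peaks. Of the control bases 60.0% were covered in the knockout as well, against 71.0% over all genes, and of the knockout bases 86.6% were covered in the control, against 75.3%.

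By fold, the junction genes lay in the lower part of both lists. The median fold of their control peaks was 4.03 (1.38 to 16) against 7.22 for all control peaks, and that of their knockout peaks was 2.85 (1.86 to 17.4) against 7.03. A fold under 2 was found in 5 of 22 control peaks (22.7%) and 3 of 15 knockout peaks (20.0%), against 3.8% and 4.06% of all peaks. The median log10 q was lower than in the whole list, however, at -18.4 against -9.17 in the control and -9.03 against -7.69 in the knockout. Of the 8 peaks with a fold under 2, only the 3′-most Dsp peak (1.95) had a q below the median of its list. The other 7 had log10 q values between -7.01 and -2.09. Low folds in the knockout list were not particular to these genes. In the other junction genes described further below, 5.49% of control and 18.2% of knockout peaks had a fold under 2. Their median folds were 6.42 in the control and 4.2 in the knockout. Their median log10 q values were -27.8 and -16.5.

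**Figure D4:**
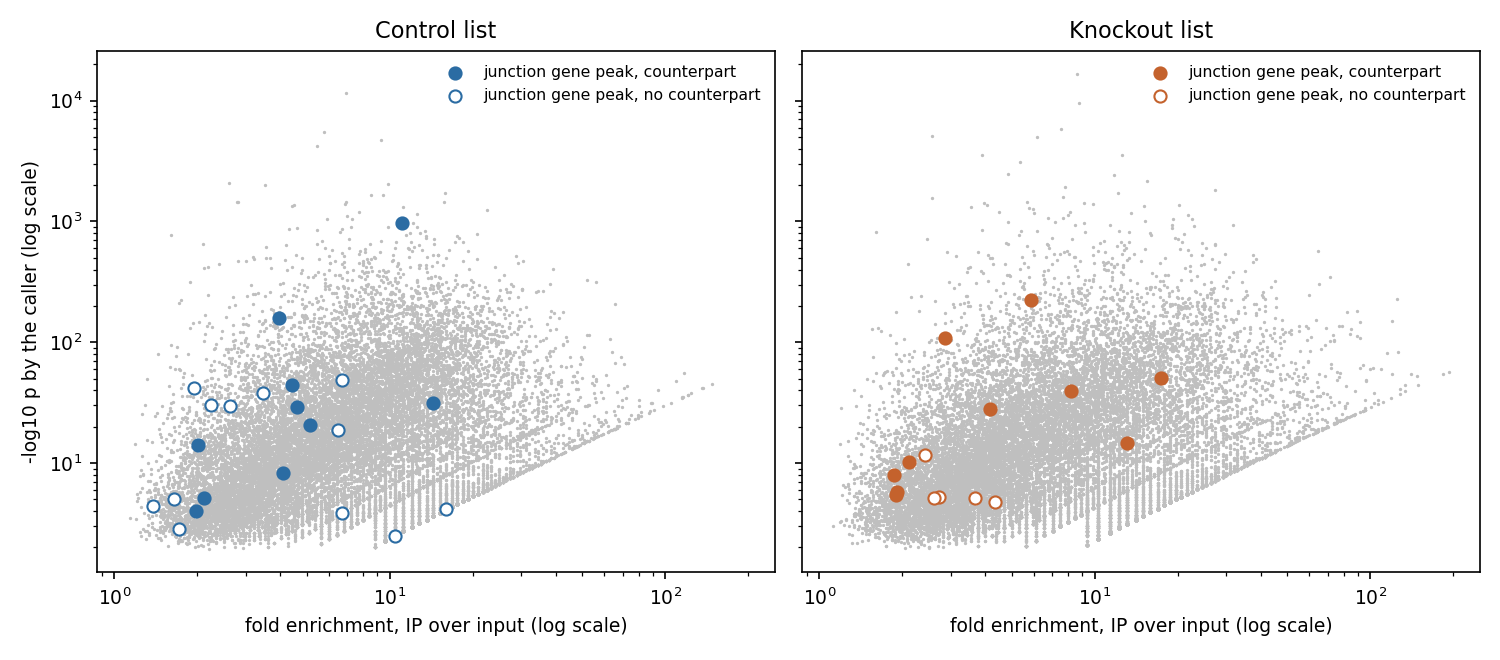
Fold of IP over input against -log10 p of the authors' caller, both on log scales, for all peaks (grey) and the peaks of the 10 junction genes (circles) in the control (left) and knockout (right) lists. Filled circles have a counterpart in the other list and open circles do not. Open circles of the control list reach from a log10 p of -2.48 (Ctnna3) to -48.9 (Dsc2), and those of the knockout list from -4.71 (Jup) to -11.7 (Cdh2).

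Other genes of these junctions were taken from a chosen list of further cadherins, catenins, plaque proteins, actin linkers and nectins. It does not hold every gene of these families. Of 55 further junction genes, 33 were in both lists, 17 were in neither, and 4 had knockout peaks only. Cdh20, a cadherin gene, had control peaks only. Of their 91 control peaks 19 (20.9%, 13.1 to 30.7) had no knockout counterpart, and of their 99 knockout peaks 24 (24.2%, 16.2 to 33.9) had no control counterpart, both near the shares of all peaks. Of their 69 strong control peaks 10 (14.5%, 7.17 to 25.0) had none, and of their 59 strong knockout peaks 4 (6.78%, 1.88 to 16.5). The intervals of the 10 genes and of these 55 overlap for every one of these shares except that over all control peaks. They treat peaks of one gene as independent, and both sets were chosen with earlier results of these data known. Overlap of the intervals or its absence is therefore no test, and the difference between both sets was not tested.

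Among other desmosome and plaque genes, Plec, which encodes the filament linker plectin, had 9 control and 8 knockout peaks, of which 7 in each list were shared. Its 3′-most control peak (chromosome 15, 76055414 to 76055714, fold 3.97, log10 q -62.5) had no counterpart. Lmo7, which encodes an actin-associated LIM domain protein, had 5 control and 2 knockout peaks. Its strong control-only peaks, both on chromosome 14, covered 102124567 to 102125406 (fold 13.2, log10 q -34.2) and 102136123 to 102137763 (fold 4.94, log10 q -197), between a pair of shared ones. Its 3′-most peak had the same coordinates in both lists. Ppl, which encodes periplakin, and Perp, a desmosomal membrane protein gene, had knockout peaks only, with log10 q values between -3.35 and -1.90.

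Of the catenin genes, Ctnnb1, the β-catenin gene, had 2 shared peaks in each list, Ctnnd1, the p120 catenin gene, had 3 and Ctnnbip1 had 2. Ctnnal1 had 1 control and 1 knockout peak without overlap, and Ctnna2, Ctnnd2 and Arvcf had none. Among cadherin genes, Cdh13 had a control peak (log10 q -28.7) and a weaker knockout peak (log10 q -5.54) without overlap, and the 2 peaks of Cdh20 (folds 12.8 and 89.0) were in the control list only. Of the nectin genes, Nectin2 had a knockout-only peak (fold 4.50, log10 q -13.2) beside 2 shared ones.

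The actin linker genes held most of the remaining peaks. Xirp1, which encodes an actin-binding repeat protein of the intercalated disc, had 4 control and 8 knockout peaks, and each met a peak of the other list. Its 3 widest control peaks met 2 or 3 narrower knockout peaks each. Its relative Xirp2 had 7 and 6, with a strong knockout-only peak (fold 2.41, log10 q -14.3). Sorbs2, which encodes an adaptor of the actin cytoskeleton, had a strong control-only peak (fold 7.85, log10 q -22.1) and 2 strong knockout-only peaks (-15.7 and -12.5). Enah had a control-only peak at log10 q -11.8 and Limd1 one at -48.7. Afdn, Ajuba and Jcad had no control-only peak, Plekha7 had a weak one (log10 q -4.28), and Zyx (2 peaks) and Lpp (1) had knockout peaks only.

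Wtap itself had 3 control and 4 knockout peaks, which do not check its deletion. The files hold no read totals and no RNA levels, so the depth of the libraries was unknown, and fewer cells of a type, less RNA per cell and a lower share of methylated RNA cannot be told apart where a peak is listed in only 1 genotype.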

How the data were processed

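Per the series' design text, the authors compared each IP with the input of its genotype in exomePeak 2.16.0 and kept peaks with q up to 0.05. They deposited 1 list per genotype. Build GRCm39, HOMER 4.9.1, BWA 0.7.12 and fastp 0.19.11 come from the submitters' processing notes, which give no roles. The scaling of IP to input is not stated in these sources. The deposited p-value of each peak and its fold, a ratio of IP over input, were read as the authors' values. Their deposited log10 p and log10 q were treated as a score, since q reaches 0. Lists were called separately, so depth and pull-down efficiency can move what is called, and folds are set side by side without a ratio.

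Genes were matched by the symbol in the lists, each with 1 Ensembl ID. Overlaps were computed with pandas 2.3.3 and numpy 2.4.6 in Python 3.11.15, with scipy 1.17.1 for exact (Clopper-Pearson) 95% intervals, and figures drawn with matplotlib 3.10.9. Starts were converted to count from 1. The overlap code was run on 19795 control peaks that overlapped no other, against copies shifted by less than their width. Some copies were moved to a made-up chromosome. The code found 100% of the kept and 0% of the moved peaks. This outcome was set by the design, so it checks the code alone. The members, the 55 other junction genes, the markers and the limit for strong peaks were chosen with earlier results of these data known. Other genes were named by rule: the 8 of the 55 with most peaks, those with peaks in 1 list or with a strong single-list peak, and for the Dsc2 pattern the 8 with most control peaks. Others (the catenins, neighbours and overlapping genes) were chosen after their values were seen. RNA sequence under the peaks was not analysed here. The result for 1 of the 55 other junction genes is not reported here, though the counts over these genes include it.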

Additional observations from a re-analysis of the deposited data

How the results depend on the processing

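The settings tried were q at or under 0.01 or 0.001, folds of at least 2 or 4, equal numbers of peaks per list (20111), an overlap of 50% of either the shorter peak or each of both, whole spans, no strand, merged peaks, other limits for strong peaks and leaving out Dsp. Of 56 recomputed counts over the 10 genes, 51 were within 1.5 times the reported count. Counts and not shares were compared, so 4 of 7 strong control peaks (fold of at least 4) against 6 of 13 was within it. Some settings had little room to change the counts. All strong peaks passed both q limits, and each shared pair overlapped by at least 66.7% of either peak. With a fold of at least 4 in both lists, 7 of 11 control peaks and 2 of 6 knockout peaks had no counterpart. The count of genes with knockout peaks only went from 0 to 1 with a fold of at least 2 (Pkp2) and was 1 with a fold of at least 4 (Jup), because the filter removed their shared peaks. With 1e-20 as the limit for strong peaks, 0 of 5 in the knockout list had no counterpart, as the Cdh2 peak was no longer among them. The 12 control and 5 knockout peaks without a counterpart were 12 and 5 under each overlap rule, while over all peaks an overlap of 50% of both peaks moved the shares to 38.5% and 39.7%. Of 200 counts for single genes, 14 moved by more than 1.5 times. No paired analysis was possible because each genotype had 1 pooled IP and 1 input library.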
